A study of Homo sapiens with 12 samples.

Results

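The response of HOTAIRM1 knockdown NB4 cells to all-trans retinoic acid (ATRA) was measured on 6 of the 12 arrays of the study. These were the 3 arrays of untreated knockdown cells and the 3 arrays of knockdown cells given 0.5 uM ATRA for 96 h. The comparison was chosen by these sample labels, not by measured values, and it ran over all 18404 genes with a probe set annotated to 1 gene. NB4 is an established human acute promyelocytic leukemia line. In both states, 2 arrays came from cells carrying HOTAIRM1 shRNA1, labelled as biological replicates 1 and 2, and 1 array came from cells carrying HOTAIRM1 shRNA2. The other 6 arrays were controls with the same dose and time, namely scrambled shRNA replicates 1 and 2 and wild type NB4, each untreated and after ATRA. Total RNA was hybridised to Affymetrix ST arrays after labelling as biotinylated cDNA. The labels do not say whether a knockdown line was a clone or a pool, and p-values measure the spread between these arrays only.

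Acute promyelocytic leukemia cells carry the fusion protein PML-RARA, which holds granulocyte genes silent and keeps the cells at the promyelocyte stage. ATRA binds the retinoic acid receptor part of the fusion and lets the cells leave the cell cycle and mature along the granulocyte pathway. HOTAIRM1 is a long noncoding RNA transcribed next to the HOXA genes that is itself induced during this maturation. The question put to the knockdown arrays was which genes still moved with ATRA when HOTAIRM1 was targeted.

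HOTAIRM1 itself had no named probe set among those used, so its level was not analysed here and the knockdown was not checked. The deposited values were on a log2 scale, and the medians of the 6 knockdown arrays ran from 7.73 to 7.79. Arrays of the same arm correlated at r = 0.989 to 0.995 across genes before ATRA and at 0.991 to 0.993 after it. The identity of the cells was read from neutrophil granule genes. The myeloperoxidase gene MPO stood at 13.81, 13.81 and 13.78 in the untreated shRNA1 replicate 1, shRNA1 replicate 2 and shRNA2 arrays, and PRTN3, which encodes proteinase 3, at 13.48, 13.12 and 12.66. In the same arrays AZU1 stood at 11.03, 10.39 and 10.52 and CTSG at 10.51, 9.57 and 11.45. The elastase gene ELANE was lower, at 9.02, 8.99 and 9.35. The T cell gene CD3E stood at 6.34 to 6.48 and the globin gene HBB at 6.92 to 6.96, below the array medians. In the control arm the untreated scrambled replicate 2 array scored -10.6 on the first principal component, which held 66.7% of the variance, against -32.5 and -33.2 for the other untreated controls and -35.2, -34.8 and -41.2 for the untreated knockdown arrays. The ATRA-treated knockdown arrays scored 20.8, 24 and 28.

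ATRA changed a large part of the measured transcriptome of the knockdown cells. In limma's moderated test with Benjamini-Hochberg adjustment, 1854 genes were higher and 2714 were lower at an adjusted p under 0.05, which is 10.1% and 14.7% of all genes tested. The rises were larger than the falls. Among the called genes, 536 rose and 218 fell by at least 1 on the log2 scale, 147 rose and 15 fell by at least 2, and 39 rose and 1 fell by at least 3. All 3 ATRA arrays lay above all 3 untreated arrays for 3079 genes (16.7% of those tested) and below them for 4526 genes (24.6%). The median change over all genes was -0.03 (log2). Leaving out both shRNA2 arrays lowered the counts over all genes to 980 higher and 1338 lower. List counts given below for that setting are to be read against this general loss of calls.

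The 12 largest rises among called genes whose arms did not overlap were headed by TGM2, the gene of tissue transglutaminase, which cross-links proteins and is a classic retinoid target. TGM2 stood at 8.09, 7.93 and 8.28 in the untreated shRNA1 replicate 1, shRNA1 replicate 2 and shRNA2 arrays and at 13.60, 13.49 and 13.54 after ATRA. The arms were far apart, and the rise was 5.44 ± 0.91 (log2, limma standard error, n = 3 against 3, adjusted p = 0.00145), or 43.5-fold. The standard error pools the spread within all 4 arms of the 12 arrays, so control arrays enter it and the calls. For TGM2 the SD was 0.17 and 0.06 in the untreated and ATRA knockdown arms. In the untreated control arm it was 2.67, with scrambled replicate 2 at 12.86 and the others at 8.30 and 8.16. From here on, each gene's 3 values are given in the same order of arrays, shRNA1 replicate 1, shRNA1 replicate 2 and shRNA2, and each difference is given as log2 with limma's standard error and adjusted p.

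CLC, which encodes the galectin of Charcot-Leyden crystals, stood at 7.20, 8.11 and 6.50 before ATRA and at 11.54, 13.12 and 12.75 after it, a rise of 5.20 ± 0.67 (adjusted p = 0.000489). BPI, the endotoxin-binding protein of primary granules, stood at 7.88, 8.22 and 6.79 before and 12.38, 12.54 and 12.26 after, a rise of 4.76 ± 0.65 (adjusted p = 0.000581). In both genes the untreated shRNA2 array was the lowest of the 6. ALOX5AP, which presents arachidonic acid to 5-lipoxygenase for leukotriene synthesis, stood at 9.20, 8.81 and 8.03 before and at 13.35, 13.41 and 13.44 after, a rise of 4.72 ± 0.66 (adjusted p = 0.000633). ADGRE3, an adhesion receptor of myeloid cells, stood at 7.03, 6.95 and 7.18 before and at 11.70, 11.61 and 11.92 after. Its rise of 4.69 ± 0.29 (adjusted p = 1.74e-05) was also among the 5 called changes of at least 2 that varied least between the lines, with CCL24, ELOVL3, CFP and TNFAIP2.

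The rest of the 12 were genes of receptors, chemokines, an adhesion molecule, a channel and a kinase. P2RY13, a receptor for ADP, rose by 4.47 ± 0.61 (adjusted p = 0.00057). The interferon-induced chemokine gene CXCL10 rose by 4.43 ± 0.88 (adjusted p = 0.0036) from untreated values that were far apart, 8.75, 8.12 and 4.90. JAML, a junctional adhesion molecule of leukocytes, rose by 4.30 ± 0.37 (adjusted p = 7.69e-05), and the glycerol and water channel gene AQP9 rose by 4.18 ± 0.40 (adjusted p = 0.000133). GPR34, a lysophospholipid receptor, went from 4.66, 4.73 and 4.30 to 8.13, 8.57 and 9.14. The kinase gene LRRK2 went from 5.98, 6.74 and 5.96 to 9.60, 10.60 and 10.26, a rise of 3.93 ± 0.26 (adjusted p = 2.09e-05). CCL24, a chemokine that draws eosinophils, went from 7.37, 7.52 and 7.52 to 11.24, 11.41 and 11.48, and its 3 changes were nearly equal.

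The 12 largest falls were smaller than the 12 largest rises. CST7, which encodes cystatin F, an inhibitor of the cathepsins that process granule proteases, had the largest fall, the only one past 3. CST7 stood at 11.50, 11.57 and 12.02 before ATRA and at 8.78, 8.65 and 8.62 after it, a difference of -3.01 ± 0.23 (adjusted p = 5.96e-05), so the ATRA arrays were 8.07-fold lower. CTSG, the gene of the granule protease cathepsin G, stood at 10.51, 9.57 and 11.45 before and at 7.72, 8.40 and 8.06 after, a difference of -2.45 ± 0.49 (adjusted p = 0.00356). The untreated CTSG arrays spread over nearly 2 log2 units and the treated ones did not. E2F5, a repressive E2F factor, went from 9.40, 9.17 and 10.26 to 7.31, 7.22 and 7.15, a difference of -2.39 ± 0.42 (adjusted p = 0.00194).

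The carbonic anhydrase-related gene CA8 differed by -2.46 ± 0.46 (adjusted p = 0.00271), and the transcription factor gene EBF3 by -2.38 ± 0.24 (adjusted p = 0.000148). TENT5C, a poly(A) polymerase gene, differed by -2.35 and NT5DC2 by -2.34. RNASE2CP differed by -2.31, but it is a pseudogene of the RNASE2 family and its probe set may also read the parent gene. RBP4, which carries retinol in blood, went from 8.38, 8.95 and 10.59 to 7.05, 6.73 and 7.23. The RBP4 difference was -2.31 ± 0.55 (adjusted p = 0.00991), and -1.78 without both shRNA2 arrays, with an adjusted p of 0.0622. S100A10, the partner of annexin A2 on the cell surface, went from 11.39, 11.87 and 11.91 to 9.34, 9.87 and 9.20, a difference of -2.25 ± 0.29 (adjusted p = 0.000483). MTSS2 and the fatty acid elongase gene ELOVL3 differed by -2.21 and -2.17.

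**Figure D1:**
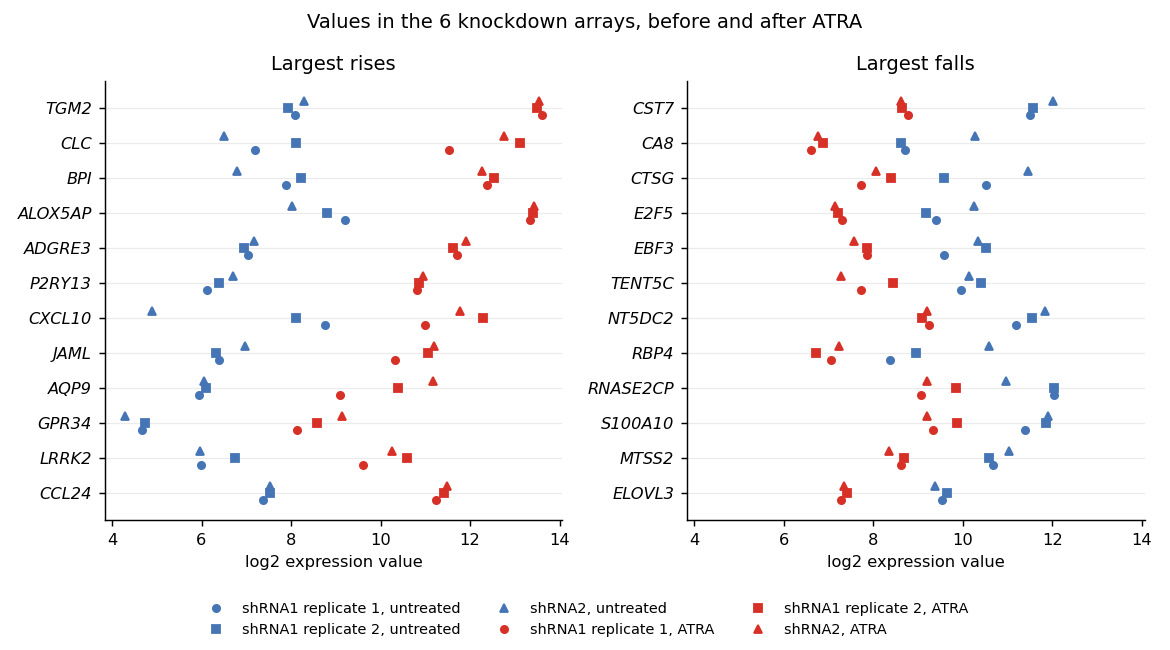
Log2 expression value (horizontal axis) of the 12 largest rises (left) and 12 largest falls (right) in each of the 6 knockdown arrays, with blue for untreated, red for ATRA, and circle, square and triangle for shRNA1 replicate 1, shRNA1 replicate 2 and shRNA2. Every red point of a gene lies on the same side of all its blue points, as the selection required, and the blue CXCL10 points spread from 4.90 to 8.75.

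Retinoid receptors, targets and retinoid-handling enzymes moved both ways. Of 21 measured members of a 24-gene list, 10 (47.6%) were called higher and 2 (9.52%) lower. All genes gave 10.1% and 14.7%, and the median change of the list was 0.30. TGM2, above, belongs to it. ASB2, the substrate-binding part of a ubiquitin ligase and a known retinoid target in these leukemia cells, stood at 7.36, 7.17 and 6.80 before ATRA and at 10.97, 10.67 and 11.14 after, a rise of 3.82 ± 0.57 (adjusted p = 0.000871). RARB, the retinoic acid receptor beta gene, which carries a retinoid response element of its own, rose by 2.72 ± 0.33 (adjusted p = 0.000372). RXRA, the shared partner of retinoid receptors, went the other way, from 9.68, 9.93 and 10.19 to 8.73, 8.24 and 8.59, a difference of -1.41 ± 0.17 (adjusted p = 0.000386). RDH10, which oxidises retinol on the way to retinoic acid, was also lower, at -1.16 ± 0.15 (adjusted p = 0.00054). Without both shRNA2 arrays, 5 members were called higher.

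Adhesion molecules and surface receptors of mature neutrophils were mostly higher. Among 21 measured adhesion genes, 12 (57.1%) were called higher and 1 (4.76%) lower, with a median change of 0.80. The shares of all genes were 10.1% and 14.7%. ITGAM and ITGB2, the subunits of the CD11b/CD18 integrin by which granulocyte maturation is usually followed, were picked out after their values were seen. ITGAM went from 8.02, 8.40 and 7.31 to 10.51, 10.66 and 10.45, a rise of 2.63 ± 0.40 (adjusted p = 0.000969), and ITGB2 rose by 2.05 ± 0.28 (adjusted p = 0.000595). ITGAX, the CD11c subunit, rose by 2.96 ± 0.36, and ICAM1, the ligand of these integrins, went from 9.68, 9.61 and 8.41 to 12.90, 12.91 and 12.91. THBS1, the gene of thrombospondin 1, rose by 3.67 ± 0.39 (adjusted p = 0.000212). ITGA5, the fibronectin receptor subunit, was the exception, at 11.18, 11.15 and 10.65 before and 9.59, 9.81 and 9.77 after, a difference of -1.27 ± 0.17 (adjusted p = 0.000508).

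Of 32 measured neutrophil surface receptors, 21 (65.6%) were called higher and 2 (6.25%) lower, with a median change of 0.98. All genes gave 10.1% and 14.7%. FCAR, the IgA receptor, went from 8.26, 8.34 and 7.91 to 10.38, 10.25 and 10.09, a rise of 2.07 ± 0.20 (adjusted p = 0.000148). CLEC7A, the beta-glucan receptor dectin-1, rose by 2.65 ± 0.27 (adjusted p = 0.000169), and CSF2RB, the common beta chain of the GM-CSF receptor, rose by 1.57 ± 0.16 (adjusted p = 0.000152). The 2 lower receptors were ANPEP, the surface peptidase CD13, at -1.44 ± 0.28, and the nucleotide receptor P2RY2, at -0.85 ± 0.14. Without both shRNA2 arrays, 7 of the adhesion genes and 13 of the receptors were called higher.

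All 4 measured subunits of the NADPH oxidase, the complex that makes superoxide for killing microbes, were called higher (100%, against 10.1% of all genes). CYBB, the catalytic subunit, went from 12.07, 12.35 and 11.97 to 13.61, 13.54 and 13.68, a rise of 1.48 ± 0.22 (adjusted p = 0.000894), and RAC2, its small GTPase, rose by 0.94 ± 0.18 (adjusted p = 0.0033). The calls of NCF4 (0.85 ± 0.24, adjusted p = 0.0221) and CYBA (0.71 ± 0.20, adjusted p = 0.0222) were less firm. Both calls were lost without the untreated shRNA2 array (0.0899 and 0.089) and without the ATRA array of shRNA1 replicate 2 (0.0806 and 0.0906), that of NCF4 also without shRNA1 replicate 1 after ATRA (0.0695), and that of CYBA without untreated shRNA1 replicate 1 (0.0522) or shRNA2 after ATRA (0.0545).

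Granule genes did not move as a block. Of 15 measured primary granule genes, 3 were called lower and 2 higher, with a median change of -0.19. These shares, 20% lower and 13.3% higher, were near the 14.7% and 10.1% of all genes. The 3 lower genes were CST7 and CTSG, above, and PRSS57, a granule serine protease, at -1.05 ± 0.15 (adjusted p = 0.000615). The 2 higher genes were BPI, above, and DEFA4, a defensin. DEFA4 stood at 12.61, 11 and 8.99 before ATRA and at 13.48, 13.41 and 13.61 after it, a rise of 2.64 ± 0.87 (adjusted p = 0.044). The treated arrays were nearly equal and the untreated ones were not, with shRNA2 lowest. The DEFA4 call did not hold with the line as a block (adjusted p = 0.0529), and without the untreated shRNA2 array the change was 1.70 (adjusted p = 0.176). It was also lost without any other knockdown array except untreated shRNA1 replicate 1, at adjusted p-values of 0.09 to 0.108, and without 1 of 3 control arrays, at 0.0534 to 0.0551.

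Secondary and tertiary granule genes, which normally come on at the myelocyte stage and later, gave 4 called higher and none lower of 18 (22.2% higher against 10.1% of all genes), with a median change of 0.09. The 4 were CRISP3, from 6.10, 5.78 and 5.99 to 7.36, 7.69 and 7.97 (1.72 ± 0.23, adjusted p = 0.000562), CTSS (1.70 ± 0.24), ORM1 (1.0 ± 0.23) and FOLR3 (0.94 ± 0.12). The best known members did not pass the test and were named after their values were seen. The lactoferrin gene LTF stood at 7.13, 6.86 and 7.16 before and 7.09, 7.13 and 7.05 after. The cathelicidin gene CAMP differed by -0.07 (95% interval -0.31 to 0.16) and the lipocalin gene LCN2 by -0.11, and their treated and untreated values overlapped. MMP8, the neutrophil collagenase, stood at 5.46, 5.57 and 5.54 before ATRA and at 6.17, 6.31 and 10.18 after it. Only its shRNA2 array was high, and the mean difference of 2.03 ± 1.17 did not pass the test (adjusted p = 0.255).

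Calcium-binding S100 proteins and annexins gave 5 higher and 2 lower of 13 (38.5% and 15.4%, against 10.1% and 14.7% of all genes). S100A8, which forms calprotectin with S100A9, went from 8.46, 9.85 and 6.87 to 12.43, 11.75 and 11.98, a rise of 3.66 ± 0.60 (adjusted p = 0.00125), and S100A9 rose by 1.79 ± 0.32 (adjusted p = 0.00187). ANXA5, which binds phosphatidylserine, rose by 1.27 ± 0.16 (adjusted p = 0.000425). S100A10, above, fell. S100A4 differed by -0.78 ± 0.26 (adjusted p = 0.0464), a call lost without any knockdown array except shRNA1 replicate 2 after ATRA (0.0594 to 0.164) and without 3 of the control arrays (0.0559 to 0.063). Leaving out both shRNA2 arrays left 3 genes of this list called higher. The lipid mediator list gave 5 higher and none lower of 17 (29.4% higher against 10.1% of all genes). Besides ALOX5AP these included PTGES, which makes prostaglandin E, at 8.15, 7.73 and 7.87 before and 10.97, 10.03 and 11.28 after (2.84 ± 0.31, adjusted p = 0.000226), the cyclooxygenase gene PTGS1 (2.33 ± 0.44) and the leukotriene receptor gene CYSLTR1 (0.96 ± 0.13).

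Myeloid transcription factors gave 8 higher and 4 lower of 26 (30.8% and 15.4%, against 10.1% and 14.7% of all genes), with a median change of 0.06. SPI1, which encodes PU.1, the main driver of myeloid fate, went from 11.18, 11.06 and 11.12 to 11.94, 11.94 and 11.85, a rise of 0.79 ± 0.15 (adjusted p = 0.00328). ID2, an inhibitor of helix-loop-helix factors, rose by 2.61 ± 0.41 (adjusted p = 0.00109), and the immediate early gene EGR1 rose by 1.30 ± 0.22 (adjusted p = 0.00141). CEBPE, the factor of late granulocyte maturation, named after its values were seen, rose by 1.42 ± 0.32 (adjusted p = 0.00757). CEBPA, which acts earlier in the same lineage, went from 9.65, 9.42 and 9.61 to 9.11, 9.07 and 8.72, a difference of -0.59 ± 0.11 (adjusted p = 0.00257), and the repressor gene GFI1 differed by -0.76 ± 0.15 (adjusted p = 0.00369). Without both shRNA2 arrays, 5 were called higher and 1 lower.

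Interferon-stimulated genes formed the largest list with a one-sided rise. Of 42 measured members, 30 were called higher and none lower (71.4% against 10.1% of all genes), with a median change of 1.90. SAMD9L, an antiviral growth suppressor, stood at 7.45, 6.89 and 6.87 before ATRA and at 9.67, 11.31 and 11.48 after it, a rise of 3.75 ± 0.44 (adjusted p = 0.000308). TRIM22, a ubiquitin ligase with antiviral activity, went from 7.26, 7.69 and 6.59 to 9.55, 11.13 and 11 (3.38 ± 0.48, adjusted p = 0.000686). PARP9 rose by 2.69 ± 0.42 (adjusted p = 0.00102), and PLSCR1, a phospholipid scramblase that is also an interferon target, rose by 2.20 ± 0.30 (adjusted p = 0.000562). In each of these genes the ATRA array of shRNA1 replicate 1 was the lowest of the 3.

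That order held over the list. The median member changed by 0.60 in shRNA1 replicate 1, by 2.43 in shRNA1 replicate 2 and by 2.45 in shRNA2, and 14, 34 and 34 of the 42 members rose by at least 1. Before ATRA the 3 lines had like median levels, 7.43, 7.38 and 7.56, so the lines parted after ATRA, at 8.56, 10.28 and 10.17. IFIT1, which binds viral RNA and was named after its values were seen, stood at 6.57, 6.34 and 6.68 before and at 6.99, 10.54 and 10.23 after. IFI44L was the extreme, at 5.88, 5.78 and 5.83 before and 6.07, 10.28 and 10.84 after, a mean rise of 3.23 ± 1.08 (adjusted p = 0.0466). Its call was lost in 15 of 23 alternative settings (adjusted p of 0.0503 to 0.291), among them leaving out any knockdown array except shRNA1 replicate 1 after ATRA, or any of 4 control arrays. The control lines were unequal too, with median changes of 2.77 in scrambled replicate 1, 1.11 in scrambled replicate 2 and 1.5 in wild type. Fewer members were called without the ATRA array of shRNA1 replicate 2 (21) or of shRNA2 (20), more without that of shRNA1 replicate 1 (35), and 14 without both shRNA2 arrays.

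**Figure D2:**
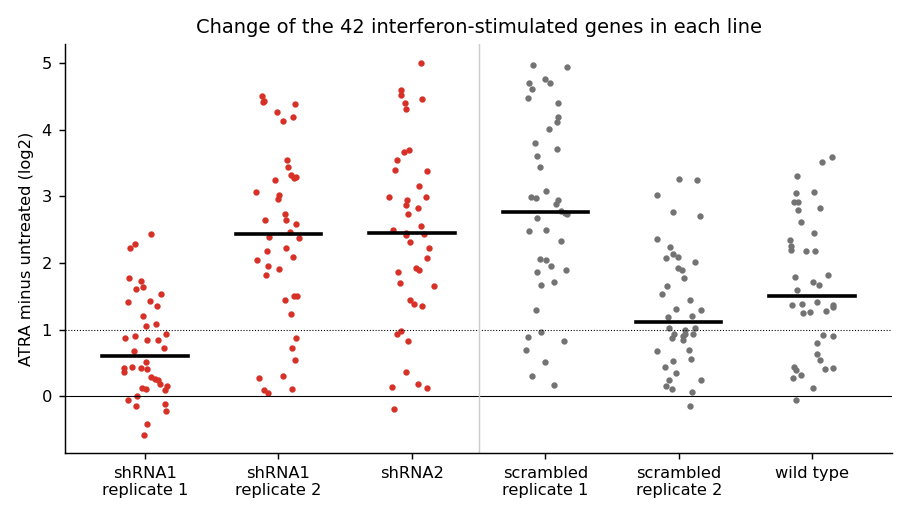
Change with ATRA (log2, vertical axis) of each of the 42 measured interferon-stimulated genes in each line, with knockdown lines in red, control lines in grey, a bar at the median and a dotted line at 1. The median is 0.60 in shRNA1 replicate 1 and 2.43 and 2.45 in the other knockdown lines, while the control lines lie at 2.77, 1.11 and 1.5.

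The promoters of these genes were searched for the core of the interferon-stimulated response element, the site bound by the STAT and IRF9 complex. The search took GAAA repeated after a gap of any 2 bases, on both strands, in the 300 bases from 250 before to 50 after each gene's start (RefSeq, GRCh38.p14). The core was found in 23 of 34 list members with a promoter in the table (67.6%), in 8 of 11 class I antigen processing genes (72.7%), and in 3.04% of all 14228 promoters of measured genes. Called genes held it in 5.57% of promoters where they rose and in 2.13% where they fell. The 6 called list members with a match and the smallest p-values are shown with 30 bases on each side of the first match. The bases are on the strand of the gene, with the matches in capitals. Since a match was required, its recurrence among these 6 was fixed by the choice. A match on the opposite strand reads as TTTC repeated.

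PLSCR1, chr3:146544647-146544716, minus strand: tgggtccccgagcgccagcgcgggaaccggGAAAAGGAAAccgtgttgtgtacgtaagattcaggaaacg
IFIH1, chr2:162318804-162318873, minus strand: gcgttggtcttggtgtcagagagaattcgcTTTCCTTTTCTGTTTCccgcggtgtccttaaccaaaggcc
IFI6, chr1:27672309-27672378, minus strand: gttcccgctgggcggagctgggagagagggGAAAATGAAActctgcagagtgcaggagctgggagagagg
PARP14, chr3:122680780-122680849, plus strand: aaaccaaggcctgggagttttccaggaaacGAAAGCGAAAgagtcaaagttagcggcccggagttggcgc
DTX3L, chr3:122564302-122564371, plus strand: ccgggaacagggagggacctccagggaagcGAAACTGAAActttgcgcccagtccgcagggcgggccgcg
OAS3, chr12:112938301-112938370, plus strand: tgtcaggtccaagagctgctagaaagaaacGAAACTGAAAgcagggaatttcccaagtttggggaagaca

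Of these, IFIH1, the sensor of long double-stranded RNA also called MDA5, went from 6.98, 6.83 and 6.64 to 8.05, 9.42 and 9.20 (2.07 ± 0.33, adjusted p = 0.00113). IFI6, a mitochondrial interferon target, went from 10.08, 10.16 and 9.99 to 11.85, 13.43 and 13.37 (2.81 ± 0.48, adjusted p = 0.00155), and OAS3, which makes the activator of RNase L, rose by 3.23 ± 0.60 (adjusted p = 0.00249). PARP14 rose by 3.63 ± 0.62 and DTX3L, the ubiquitin ligase partner of PARP9, by 1.87 ± 0.32. Each had its lowest ATRA value in shRNA1 replicate 1. List members with the core changed by a median of 0.42, 2.38 and 2.42 in the 3 lines (n = 23, of which 15 were called), and those without it by 0.93, 2.96 and 2.82 (n = 11, all called).

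Receptors, kinases and factors of interferon signalling gave 10 higher and none lower of 17 (58.8% higher against 10.1% of all genes). Their median change was 0.77. IRF9, the DNA-binding part of the interferon-activated complex, went from 8.45, 8.53 and 8.51 to 10.20, 11.16 and 11.10, a rise of 2.32 ± 0.22 (adjusted p = 0.000133). IFNGR1 and IFNGR2, the chains of the interferon gamma receptor, rose by 1.53 ± 0.23 and 0.77 ± 0.11, and the kinase gene TYK2 by 0.83 ± 0.13. The class I antigen presentation list gave 10 higher and none lower of 12 (83.3% higher against 10.1% of all genes). Its median change was 1.04. B2M, the light chain of class I molecules, went from 11.50, 11.80 and 11.25 to 12.49, 12.79 and 12.65 (1.13 ± 0.16, adjusted p = 0.00064). PSMB9, an immunoproteasome subunit, rose by 1.95 ± 0.32, and the peptide loading genes TAP2 and TAPBP by 1.26 ± 0.21 and 1.09 ± 0.15. Leaving out both shRNA2 arrays left 4 of the 12 called higher.

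Some of the genes on 3 lists of inflammatory signalling were called higher. Chemokines and cytokines gave 12 higher and none lower of 31, pattern recognition and inflammasome genes 10 higher and 1 lower of 24, and NF-kappaB subunits and their feedback inhibitors 10 higher and none lower of 14. The shares called higher were 38.7%, 41.7% and 71.4%, against 10.1% of all genes. IL1B, which encodes interleukin 1 beta, stood at 6.66, 6.78 and 6.94 before ATRA and at 9.23, 10.10 and 10.39 after it, a rise of 3.11 ± 0.25 (adjusted p = 6.57e-05). CXCL8, the main neutrophil attractant interleukin 8, rose by 2.46 ± 0.30 (adjusted p = 0.000372), and IL1A by 2.85 ± 0.41 (adjusted p = 0.00075). TLR1, a receptor for bacterial lipopeptides, went from 5.47, 5.90 and 5.67 to 7.85, 8.09 and 8.48 (2.46 ± 0.16, adjusted p = 2.09e-05). LY96, the MD-2 partner of TLR4, rose by 2.84 ± 0.31 and the shared adaptor gene MYD88 by 1.37 ± 0.13 (adjusted p = 0.00014). IRAK3, a brake on the same pathway, differed by -0.42 ± 0.10 (adjusted p = 0.00936). BCL3, a nuclear partner of NF-kappaB, rose by 1.43 ± 0.12 (adjusted p = 8.07e-05), REL by 1.21 ± 0.13 and the feedback inhibitor gene TNFAIP3 by 1.45 ± 0.26 (adjusted p = 0.00192). With both shRNA2 arrays left out, 6 pattern recognition genes were called higher and none lower, and 2 were called lower without untreated shRNA1 replicate 1.

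Lysosome and autophagy genes gave 21 higher and none lower of 32 (65.6% higher against 10.1% of all genes). Their median change was 0.52. PSAP, the precursor of the saposins, went from 11.35, 11.16 and 11.04 to 12.30, 12.64 and 12.39 (1.26 ± 0.10, adjusted p = 6.66e-05), and NPC2, which moves cholesterol out of the lysosome, rose by 2.0 ± 0.26 (adjusted p = 0.00049). Apoptosis regulators gave 12 (50%) higher and 2 (8.33%) lower of 24, against 10.1% and 14.7% of all genes. Their median change was 0.53. BCL2, the survival factor, fell from 9.47, 9.16 and 9.22 to 7.75, 7.45 and 7.80, a difference of -1.62 ± 0.20 (adjusted p = 0.000425). PMAIP1, which encodes the death promoter NOXA, rose by 1.46 ± 0.25 (adjusted p = 0.00151), and the TRAIL receptor gene TNFRSF10B by 1.26 ± 0.22 (adjusted p = 0.00185). BIRC2, an inhibitor of apoptosis, rose by 0.80 ± 0.11. The death receptor gene FAS was lower, at -0.53 ± 0.13 (adjusted p = 0.0121), a call lost without the untreated array of shRNA1 replicate 1 (0.0514) or 2 (0.0534).

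Coagulation and fibrinolysis genes, of interest because promyelocytic leukemia disturbs clotting, gave 3 lower and 2 higher of 13, S100A10 among the lower ones. These shares, 23.1% and 15.4%, were not far from the 14.7% and 10.1% of all genes. Tissue factor, encoded by F3, went from 8.37, 8.78 and 9.02 to 7.84, 7.74 and 8.03, a difference of -0.85 ± 0.24 (adjusted p = 0.0217). The urokinase receptor gene PLAUR was 0.93 ± 0.24 higher (adjusted p = 0.0154), and the protease inhibitor gene SERPINE2 was lower, at -1.41 ± 0.21 (adjusted p = 0.000778). The F3 call was lost without the untreated shRNA1 replicate 2 or shRNA2 array or the ATRA array of either shRNA1 replicate (adjusted p of 0.0613 to 0.0899), and the PLAUR call without untreated shRNA1 replicate 1 (0.0568) or the shRNA2 ATRA array (0.0683). THBD, the gene of thrombomodulin, was 0.56 ± 0.16 higher (adjusted p = 0.0235), but 0.36 without the shRNA2 ATRA array (0.0794), and its call was lost without any untreated knockdown array (0.0519 to 0.075). Cholesterol and lipid genes gave 6 higher and 1 lower of 18, with a median change of 0.25, and 3 higher when both shRNA2 arrays were left out. The share called lower, 5.56%, was below the 14.7% of all genes. The share called higher, 6 of 18, was above the 10.1% of all genes. ABCA1, which exports cholesterol, went from 7.81, 8.26 and 8.63 to 10.05, 10.23 and 10.53 (2.03 ± 0.19, adjusted p = 0.000108), and INSIG1, a brake on cholesterol synthesis, rose by 0.75 ± 0.14 (adjusted p = 0.00302). The lower gene was the fatty acid synthase gene FASN (-0.47 ± 0.15, adjusted p = 0.0372), a call lost without any knockdown array except untreated shRNA2 (0.0721 to 0.138).

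Among the lists examined, those for ribosome biogenesis, mitosis and DNA replication had the highest shares called lower. Of 53 measured genes of S phase and DNA replication, 36 were called lower and none higher (67.9% against 14.7% of all genes), with a median change of -0.49. POLE2, a subunit of the leading-strand polymerase, went from 10.87, 10.95 and 10.77 to 9.66, 9.86 and 9.79, a difference of -1.09 ± 0.14 (adjusted p = 0.000425). CDC7, the kinase that fires replication origins, differed by -0.87 ± 0.11 (adjusted p = 0.000415), DSCC1, part of an alternative clamp loader, by -1.02 ± 0.13 (adjusted p = 0.000406) and the fork protection gene TIPIN by -0.65 ± 0.09 (adjusted p = 0.000562). Before and after ATRA the arrays of these 4 genes did not overlap. Fewer dividing cells and less message per dividing cell cannot be told apart in RNA of whole cultures.

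Genes of G2 phase and mitosis gave 38 lower and none higher of 47 (80.9% lower against 14.7% of all genes). Their median change was -0.59. The spindle checkpoint gene MAD2L1 went from 10.50, 10.49 and 10.64 to 9.42, 9.66 and 9.67 (-0.96 ± 0.12, adjusted p = 0.000414), and CDC20, which activates the anaphase ligase, from 11.82, 11.96 and 12.07 to 10.85, 11.18 and 11.37 (-0.82 ± 0.12, adjusted p = 0.000755). CKS2 differed by -0.91 ± 0.13 and the kinetochore gene SPC24 by -0.73 ± 0.11. In each of these 4 genes the treated shRNA1 replicate 1 array was the lowest. The median of the list changed by -0.80 in shRNA1 replicate 1, -0.63 in shRNA1 replicate 2 and -0.37 in shRNA2, and 24 members were called lower without the ATRA array of shRNA1 replicate 1. DNA damage and repair genes gave 13 (56.5%) lower and 2 (8.7%) higher of 23, against 14.7% and 10.1% of all genes. Their median change was -0.40. The nuclease gene EXO1 (-0.93 ± 0.11, adjusted p = 0.000347), PARP1 (-0.86 ± 0.13) and the checkpoint kinase gene CHEK1 (-0.65 ± 0.10) fell, while ATM, the kinase that senses double-strand breaks, rose from 9.45, 9.50 and 9.51 to 10.22, 10.05 and 10.19 (0.67 ± 0.11, adjusted p = 0.0015). NBN, which helps to activate ATM, rose by 0.61 ± 0.14. When both shRNA2 arrays were left out, 8 of them were called lower.

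Regulators of G1 gave 8 lower and 3 higher of 26. These shares were 30.8% and 11.5%, against 14.7% and 10.1% of all genes. The share called higher was thus near that of all genes. BTG1, an antiproliferative gene of quiescent cells, went from 9.95, 10.13 and 10.28 to 11.50, 11.55 and 11.65 (1.45 ± 0.20, adjusted p = 0.000643), and the retinoblastoma gene RB1 was 0.42 ± 0.10 higher (adjusted p = 0.0104). CDK2 differed by -0.54 ± 0.09 (adjusted p = 0.00136) and the repressor gene E2F8 by -0.60 ± 0.11 (adjusted p = 0.00225). The count of lower genes was 5 without the shRNA1 replicate 1 untreated array, 4 without the untreated and 5 without the ATRA array of shRNA2 and 3 without both, and that of higher genes was 5 without the untreated scrambled replicate 2 array.

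The same promoters were searched on both strands for the forms TTTGGCGC and TTTCCCGC of the site bound by E2F factors, which drive S phase genes. Of 44 S phase members with a promoter, 17 held one (38.6%), against 3.11% of all promoters, 5.29% of those of called lower genes and 2.75% of those of called higher genes. The 3 called members with a match and the smallest p-values are shown as above, all with the match on the opposite strand.

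POLE2, chr14:49688182-49688249, minus strand: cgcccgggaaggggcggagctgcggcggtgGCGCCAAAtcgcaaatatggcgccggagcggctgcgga
GINS3, chr16:58392436-58392503, plus strand: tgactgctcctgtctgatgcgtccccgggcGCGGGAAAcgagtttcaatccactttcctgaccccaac
GINS2, chr16:85688948-85689015, minus strand: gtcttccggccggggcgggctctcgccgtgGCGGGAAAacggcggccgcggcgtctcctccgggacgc

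GINS3 and GINS2, subunits of the replicative helicase, differed by -0.83 ± 0.11 (adjusted p = 0.000595) and -0.91 ± 0.15 (adjusted p = 0.00114). GINS2 stood at 12.21, 12.14 and 12 before ATRA and at 11.18, 11.23 and 11.20 after it. S phase members with the site changed by a median of -0.65 (n = 17, of which 12 were called lower) and those without it by -0.49 (n = 27, of which 20 were called lower).

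Ribosome biogenesis had the highest share of falls. Of 28 measured genes, 27 were called lower and none higher (96.4% lower against 14.7% of all genes), with a median change of -0.84. MRTO4, a factor of large subunit assembly, went from 9.83, 9.83 and 10.21 to 8.20, 8.79 and 8.33 (-1.52 ± 0.22, adjusted p = 0.000683). POLR1B, the second largest subunit of RNA polymerase I, differed by -1.29 ± 0.17 (adjusted p = 0.000554), PNO1 by -1.01 ± 0.14 and TSR1 by -0.84 ± 0.12. The E-box CACGTG, the preferred site of MYC and its relatives, lay in 10 of 23 promoters of the list (43.5%), in 8.88% of all promoters and in 12.8% of those of called lower genes. Members with and without it changed by like medians, -0.87 (n = 10) and -0.84 (n = 13), and all were called lower.

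MYC itself, named after its values were seen, stood at 11.84, 11.85 and 11.89 before ATRA and at 10.48, 10.93 and 10.41 after it, a difference of -1.25 ± 0.23 (adjusted p = 0.00215). The MYC network and growth list gave 8 (44.4%) lower and 1 (5.56%) higher of 18, against 14.7% and 10.1% of all genes. Its median change was -0.30. ODC1, the first enzyme of polyamine synthesis and a MYC target, went from 12.53, 12.49 and 12.39 to 11.27, 11.52 and 11.38 (-1.08 ± 0.16, adjusted p = 0.000932). The nucleolar genes NCL, NPM1 and FBL differed by -0.77 ± 0.13, -0.63 ± 0.09 and -0.59 ± 0.10, and NPM1 by -0.40 when its probe sets were averaged. The higher gene was MXD4, an antagonist of MYC, at 0.37 ± 0.12 (adjusted p = 0.0431), and its call was lost with the line as a block (adjusted p = 0.0887) and in 9 other settings (0.0507 to 0.158), among them leaving out any of the 4 shRNA1 arrays or any of 4 control arrays.

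Enzymes of purine, pyrimidine and one-carbon synthesis gave 14 lower and none higher of 22 (63.6% lower against 14.7% of all genes). Their median change was -0.55. PPAT, the committed step of purine synthesis, went from 10.63, 10.78 and 10.93 to 9.51, 9.81 and 9.48 (-1.18 ± 0.18, adjusted p = 0.000871), and PRPS2, which makes its substrate, differed by -1.21 ± 0.16 (adjusted p = 0.000559). Cytosolic tRNA synthetases gave 5 lower and 1 higher of 19 (26.3% lower against 14.7% of all genes). FARSB, for phenylalanine, was lower, at -1.01 ± 0.14 (adjusted p = 0.000569). WARS1, for tryptophan, which is also an interferon target, was the exception, at 11.36, 11.04 and 10.72 before and 12.13, 12.08 and 12.42 after (1.17 ± 0.21, adjusted p = 0.00212).

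**Figure D3:**
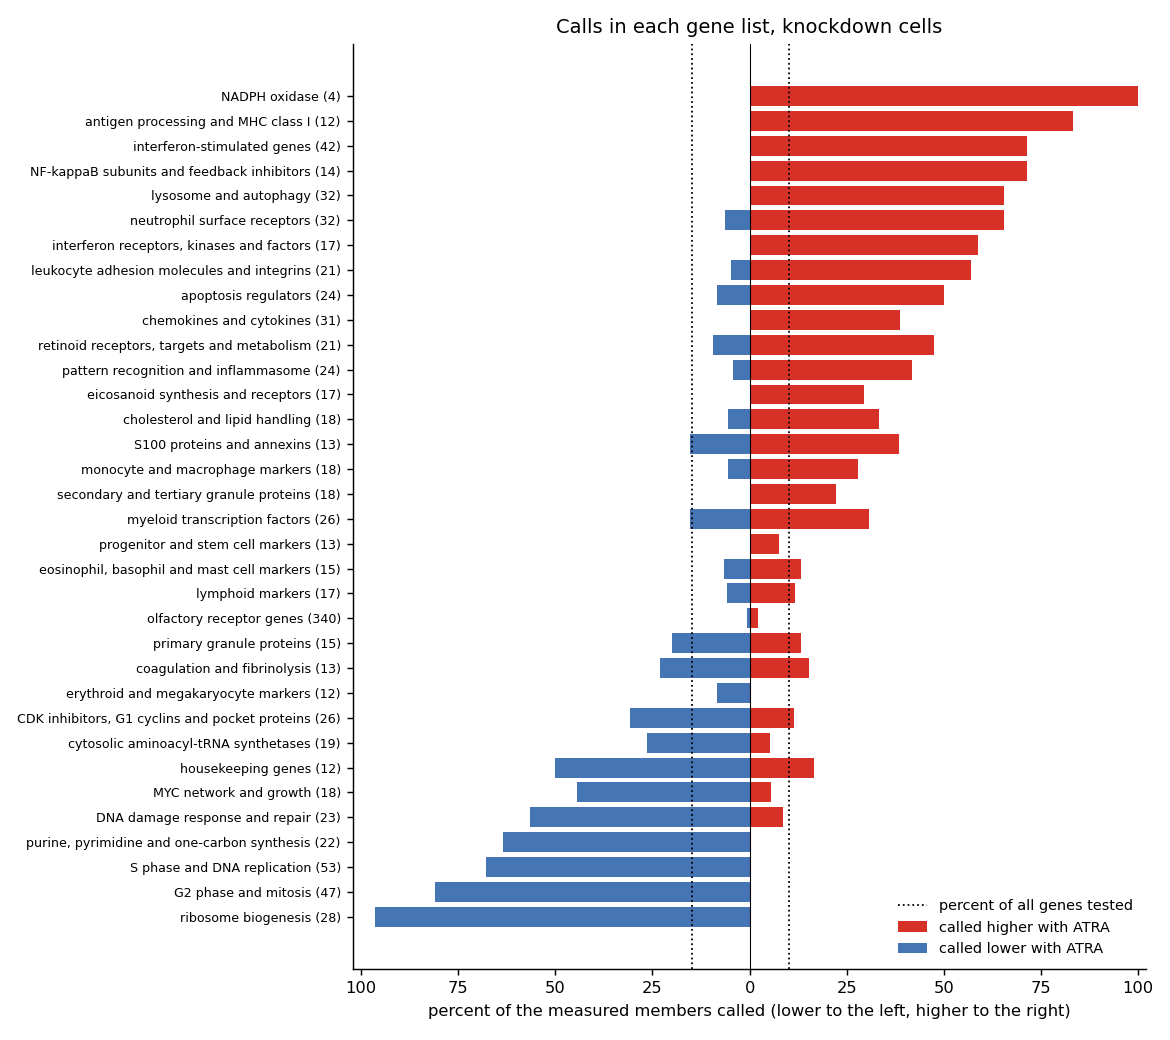
Percent of the measured members of each gene list called higher (red, to the right) or lower (blue, to the left) with ATRA in the knockdown cells, with the number measured in brackets and dotted lines at the shares of all genes tested, 10.1% and 14.7%. Ribosome biogenesis stands at 96.4% lower and NADPH oxidase at 100% higher, and the 340 olfactory receptor genes at 2.06% and 0.588%.

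Markers of other blood cell types were counted in the same way. Monocyte and macrophage markers gave 5 higher and 1 lower of 18 (27.8% and 5.56%, against 10.1% and 14.7% of all genes), with a median change of -0.04. CX3CR1, the fractalkine receptor, went from 7.84, 7.70 and 6.32 to 9.98, 10.11 and 10.09 (2.77 ± 0.31, adjusted p = 0.00025), and the costimulatory gene CD86 from 6.12, 5.88 and 6.25 to 8.15, 8.92 and 9.42 (2.74 ± 0.30, adjusted p = 0.000222). CSF1R rose by 0.90 ± 0.18, and FCN1, the lectin of blood monocytes, was lower, at -0.81 ± 0.16. The mean level of the whole list was 7.21 to 7.35 in the untreated arrays and 7.49 to 7.77 in the ATRA arrays, and its part in the rises of the other lists was not tested.

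Eosinophil, basophil and mast cell markers gave 2 higher and 1 lower of 15 (13.3% and 6.67%, against 10.1% and 14.7% of all genes), with a median change of 0.04. The 2 were CLC, above, and ADGRE1 (2.33 ± 0.47, adjusted p = 0.00378), and the lower one was GATA2, a progenitor and mast cell factor, at 8.68, 8.35 and 9.09 before and 7.71, 7.76 and 7.73 after (-0.97 ± 0.22, adjusted p = 0.00717). Lymphoid markers gave 2 higher, NKG7 (1.33 ± 0.14) and CD4 (0.96 ± 0.20), and 1 lower, CD79B (-0.69 ± 0.15), of 17. The lymphoid shares were 11.8% and 5.88%, against 10.1% and 14.7% of all genes. The erythroid and megakaryocyte list gave 1 lower of 12 (8.33%, against 14.7% of all genes), the factor gene NFE2 (-1.21 ± 0.11, adjusted p = 0.000102). Of 13 progenitor markers 1 was called higher (7.69%, against 10.1% of all genes). It was CD38, from 11.29, 11.44 and 11.15 to 12.29, 12.52 and 12.36 (1.09 ± 0.30, adjusted p = 0.0179). CD38 was also chosen as a promyelocyte identity marker, so its rise is not read as a gain of progenitor traits. The CD38 call was lost without the untreated shRNA2 array (0.0628) or the ATRA array of shRNA1 replicate 2 (0.0616). Over the alternative settings the lower genes numbered 0 to 3 in the eosinophil list and 0 to 2 in the lymphoid list. HOXA2 was the 1 measured member of the 11 genes of the HOXA cluster, in which HOTAIRM1 lies, and went from 6.90, 6.99 and 6.68 to 7.28, 7.12 and 7.16 (0.33 ± 0.10, adjusted p = 0.0357), a call lost without any knockdown array except untreated shRNA1 replicate 2 (0.0563 to 0.145) and under quantile normalization (0.0541). Olfactory receptor genes, taken as genes these cells should not use, gave 7 (2.06%) higher and 2 (0.588%) lower of 340, with a median change of 0.01.

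Genes often used as constant references were not all constant. Of 12 measured housekeeping genes, 6 (50%) were called lower and 2 (16.7%) higher, with a median change of -0.26. All genes gave 14.7% and 10.1%. HPRT1 went from 10.30, 10.22 and 10.07 to 9.55, 9.53 and 9.48 (-0.67 ± 0.11, adjusted p = 0.00129), TBP differed by -0.54 ± 0.09 and SDHA by -0.45 ± 0.09. The 2 higher ones were B2M, above, and GUSB (0.91 ± 0.25, adjusted p = 0.019), the latter lost without the untreated shRNA2 array (0.0822) or the ATRA array of shRNA1 replicate 1 (0.0504) or 2 (0.0667). With both shRNA2 arrays left out, 3 were called lower.

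The array also carried probe sets for 173 microRNA genes, of which 8 were called higher and 1 lower. These shares, 4.62% and 0.578%, lay below the 10.1% and 14.7% of all genes. The microRNA genes named here were picked out after their values were seen, and the probe sets read precursor or host RNA, not the mature microRNA. The mature forms of the genes described next are shown 5′ to 3′ (RefSeq, GRCh38.p14) with the seed, bases 2 to 8, in capitals, since the seed decides which messages a microRNA can pair with.

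miR-223-3p: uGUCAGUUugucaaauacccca
miR-29a-3p: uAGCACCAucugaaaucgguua
miR-21-5p: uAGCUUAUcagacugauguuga
miR-15a-5p: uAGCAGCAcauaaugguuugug
miR-30c-5p: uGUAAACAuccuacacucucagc
miR-30a-5p: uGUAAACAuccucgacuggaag

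MIR223, the classic microRNA gene of granulocytes, stood at 10.60, 10.71 and 10.22 before ATRA and at 12.82, 12.37 and 12.40 after it, a rise of 2.02 ± 0.17 (adjusted p = 7.51e-05). All 3 lines moved alike, and the control cells changed by 1.75. MIR29A went from 5.01, 4.93 and 4.66 to 5.93, 5.67 and 5.70 (0.90 ± 0.17, adjusted p = 0.00299). All these MIR29A values lay below the median levels of the olfactory receptor genes, 6.11 untreated and 6.15 after ATRA, and so near the floor. MIR30A and MIR30C2, whose mature forms share the seed GUAAACA, moved in opposite directions. Both were dim, with all values below the medians of the knockdown arrays, 7.73 to 7.79. MIR30A went from 6.54, 6.61 and 6.79 to 6.19, 6.27 and 6.30 (-0.39 ± 0.08, adjusted p = 0.00428), and MIR30C2 from 6.82, 6.76 and 7.06 to 7.35, 7.49 and 7.43 (0.54 ± 0.14, adjusted p = 0.0139), a call lost without the untreated or the ATRA array of shRNA1 replicate 2 (0.0555 and 0.0503). MIR17HG, the host of a growth-promoting microRNA cluster, fell from 9.40, 9.38 and 9.38 to 8.26, 8.64 and 8.17 (-1.03 ± 0.22, adjusted p = 0.00551).

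The other 5 calls, MIR21, MIR15A, MIR103A2, MIR28 and MIR149, were small, from 0.26 for MIR149 to 0.68 for MIR21, and each was lost without 1 or more knockdown arrays. MIR21 (adjusted p = 0.0178) had 0.0704 without untreated shRNA1 replicate 1, 0.0711 without shRNA1 replicate 2 ATRA and 0.0721 without shRNA2 ATRA. MIR15A, at 0.64 ± 0.20 (adjusted p = 0.0328), had 0.0511 to 0.125 without any 1 knockdown array. MIR149 and MIR28 were also lost with the line as a block (adjusted p of 0.0821 and 0.1), and MIR28, at 0.38, was 0.21 without both shRNA2 arrays.

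The per-gene changes of the 3 knockdown lines correlated across genes at r = 0.830 between the shRNA1 replicates and at 0.811 and 0.848 between each of them and shRNA2, where genes are not independent replicates and the lines share the platform. A rise of at least 1 was seen in 465, 555 and 718 genes in shRNA1 replicate 1, shRNA1 replicate 2 and shRNA2, and a fall of at least 1 in 269, 170 and 397 genes. In all 3 lines together, 330 genes rose by at least 1, of which 326 were called, and 89 fell by at least 1, of which 88 were called.

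Whether the shRNA2 cells responded otherwise than the shRNA1 cells was tested as a difference of responses, with 1 array per state for shRNA2. The spread came from the shRNA1 and scrambled replicates, so the lone shRNA2 arrays were assumed to vary like them. Under this assumption 1 gene had an adjusted p under 0.05, MEST (0.00543% of those tested), and 660 had an unadjusted p under 0.05. MEST, an imprinted gene of the alpha/beta hydrolase family, stood at 11.10, 11.04 and 7.75 before ATRA and at 10.39, 10.42 and 10.28 after it. Only the untreated shRNA2 array was low. The difference of responses was 3.20 ± 0.23 (95% interval 2.67 to 3.73, adjusted p = 0.0189), with a rise in shRNA2 and falls in both shRNA1 replicates. It kept its size, 3.17 to 3.23, but not its call, without any 1 of the 4 shRNA1 arrays (adjusted p of 0.201 to 0.26) or either scrambled ATRA array (0.143). Each shRNA2 value rests on a lone array, so the call cannot be told apart from a deviation of the untreated one.

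Other genes stood apart between the lines without passing that test. By the widest spread of change over the 3 lines among genes with a mean change of at least 2, these were CXCL10, IFI44L, SLCO4C1 and MMP8. SLCO4C1, an organic anion transporter gene, stood at 8.74, 10.12 and 5.43 before ATRA and at 10.30, 11.10 and 11.20 after it. Its rise of 2.77 ± 0.92 (adjusted p = 0.0467) was 1.44 without the untreated shRNA2 array (0.115), and the call was lost in 18 of 23 alternative settings (0.05 to 0.257), among them leaving out any array except untreated wild type and untreated shRNA1 replicate 2. For SLCO4C1, CXCL10 and DEFA4 the untreated shRNA2 array was the lowest of the 6, while for MMP8 and IFI44L the lines parted after ATRA. FCER1G, the signalling chain of Fc receptors, was second to MEST by p, at 9.79, 9.87 and 8.65 before and 11.90, 11.96 and 11.92 after.

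**Figure D4:**
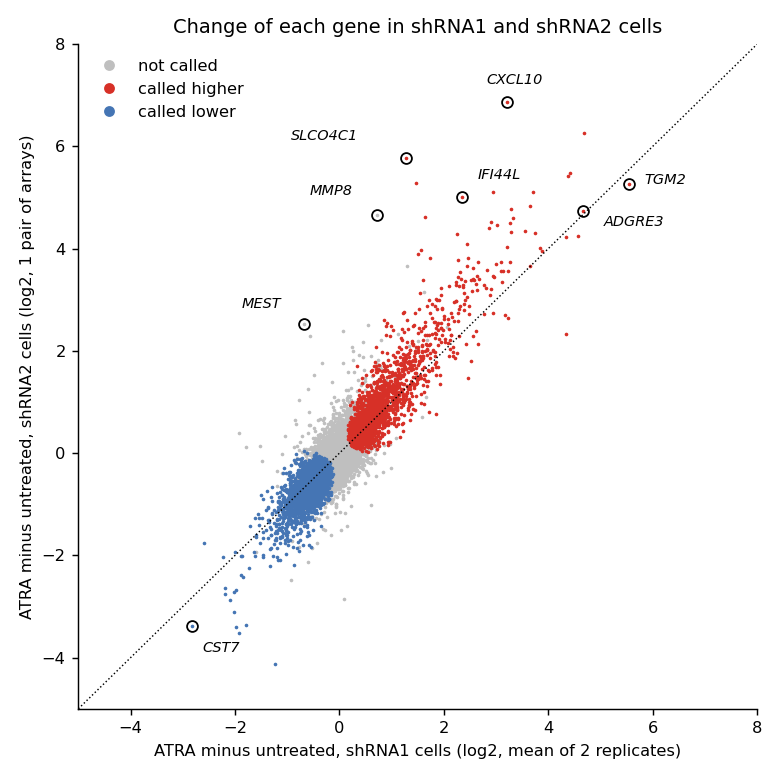
Change with ATRA of each of the 18404 genes (log2), with the mean of both shRNA1 replicates on the horizontal axis and the shRNA2 pair on the vertical axis, red for called higher, blue for called lower and a dotted line where both are equal. Most genes lie along the line, and MEST, MMP8 and SLCO4C1 lie above it.

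**Figure D5:**
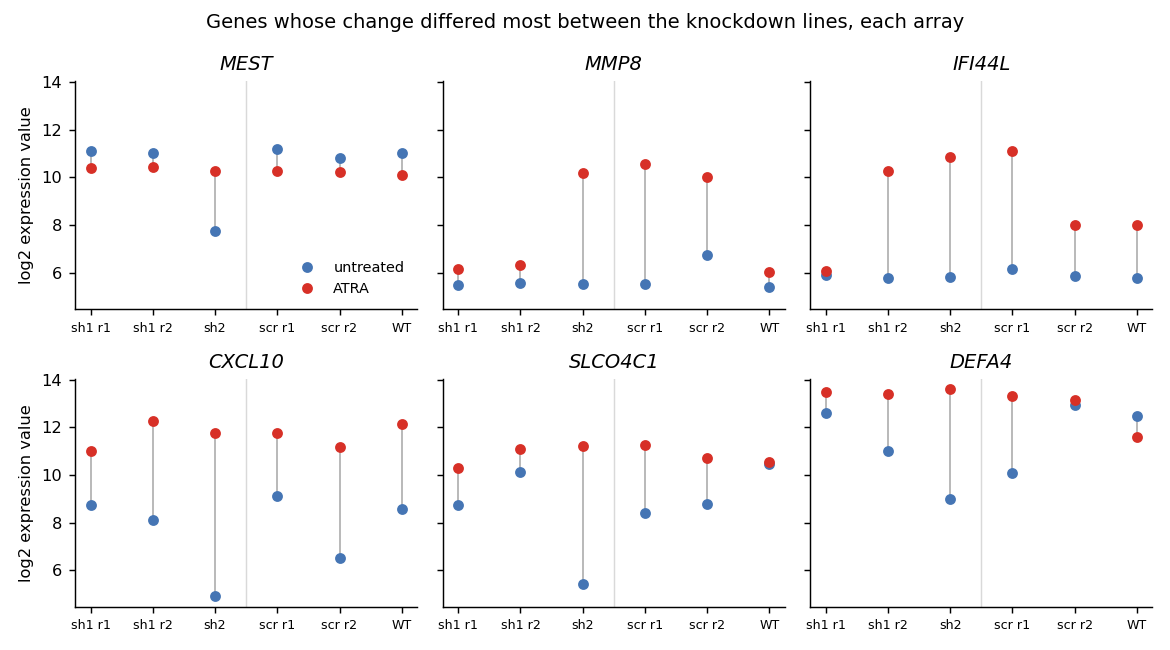
Log2 expression value (vertical axis) of 6 genes in each line before (blue) and after (red) ATRA, with sh1 and sh2 for shRNA1 and shRNA2, scr for scrambled, WT for wild type and r1 and r2 for replicates. Untreated MEST is 7.75 in shRNA2 and near 11 in the other lines, and treated IFI44L is 6.07 in shRNA1 replicate 1 and above 10 in the other knockdown lines.

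The same contrast in the control cells called 2800 genes higher (15.2% of those tested) and 3844 lower (20.9%). Of the genes called higher in knockdown cells, 1190 were also called higher in control cells, which is 64.2% of the knockdown list and 42.5% of the control list. For the lower genes the overlap was 2369, or 87.3% and 61.6%. Calls in opposite directions were made for 2 and 7 genes. The S phase list changed by a median of -0.49 in knockdown and -1.01 in control cells, with 36 and 50 of 53 called lower, and the repair list by -0.40 and -0.82. Ribosome biogenesis changed by -0.84 and -1.12, G2 phase and mitosis by -0.59 and -0.76, and interferon-stimulated genes by 1.90 and 1.76.

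No gene passed the test of the difference between the knockdown and control responses (0% of those tested), and the smallest adjusted p was 0.271. Without adjustment, 2815 genes had a p under 0.05. The 5 with the smallest p were MAGEA8, AASDH, OLIG3, EMC3-AS1 and DNA2. DNA2, a helicase and nuclease of replication, stood at 10.24, 10.10 and 9.83 before and 9.76, 9.78 and 9.97 after in knockdown cells, where it overlapped, and changed by -1.07 in control cells, a difference of responses of 0.85. The cancer-testis gene MAGEA8 had a difference of -0.63 and the aminoacid-adenylating enzyme gene AASDH one of 0.57. These differences are values only, since each had an adjusted p of 0.271.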

How the data were processed

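Expression of total RNA was measured on 12 one-colour Affymetrix ST arrays, and the 6 knockdown arrays are described here. The authors deposited log2 values per probe set. Per the submitters' processing notes the tools were RMA and limma, without versions, and the genome build and annotation used are not given in the sources used here. RMA sets a common distribution on all arrays, which can hide a shift shared by most genes.

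Of 32321 probe sets, 19158 were annotated to 1 gene, 1388 to several and 11775 were not named. Symbols were matched to RefSeq by identifier for 19128. The probe set with the highest mean stood for each of the 637 genes with several. Values were compared with limma 3.58.1 in R 4.3.3, with a mean for each of 4 arms (knockdown or control, untreated or ATRA, 3 arrays each, 8 residual and 3.63 prior degrees of freedom) and a threshold of 0.05 after Benjamini-Hochberg adjustment over all 18404 genes. The shRNA difference came from a fit with shRNA1, shRNA2, scrambled and wild type cells apart (4 residual degrees of freedom). With 3 arrays an arm, the smallest two-sided p of an exact permutation test is 0.1, so none was used. The fit of the 4 arms was tested on simulated data. The number of arrays limits the precision, and no depth applies.

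The members and the 34 gene lists were chosen with earlier results of these data known, so a list's counts are a description. Genes were named by rule: the 12 largest rises and falls, up to 4 members of each list with the smallest p and up to 2 against its majority, the most and least even genes over the lines, and the leading genes of each difference test. Exceptions are marked in the text.

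The shRNA and replicate numbers of the titles tie each ATRA array to an untreated one. Deviations from the arm means correlated at 0.161, 0.226 and 0.119 within the 3 knockdown pairs and at -0.162 to -0.002 between them. Deviations cancel out within an arm, so the negative values follow in part from the positive ones. The numbers were taken to pair the arrays, and a fit with the line as a block was run as an alternative. Unless stated, the standard errors, p-values and calls in the text come from fits without this pairing. The other alternatives were quantile normalization, median centring, no dim genes, averaged probe sets, trended robust moderation, array weights, the knockdown arrays alone, and leaving out each array or line. Leaving out both scrambled replicate 2 arrays was added after seeing the data.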

Additional observations from a re-analysis of the deposited data

Results flagged for a closer look

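The response of MEST to ATRA differed between shRNA2 and shRNA1 cells by 3.20 on the log2 scale in the test of that difference. MEST changed by 2.53 in shRNA2 cells and by -0.71 and -0.63 in the shRNA1 replicates, and the control lines changed like the shRNA1 cells, by -0.81 on average. The difference rests on the untreated shRNA2 array, which has no replicate and was assumed to vary like the replicated cells.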

How the results depend on the processing

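Over 23 alternatives, 147 of the 178 named genes called in knockdown cells kept their direction and call throughout. With the line as a replicate block, 1820 genes were called higher and 2578 lower, and the calls of DEFA4, MXD4, SLCO4C1, MIR149 and MIR28 were lost and no other named call. Leaving out 1 array gave 1402 to 2040 higher, 2012 to 2878 lower, and 0 to 3 genes that differed between shRNA2 and shRNA1 cells, a count that was also 3 without both scrambled replicate 2 arrays. Without both shRNA2 arrays, 980 were called higher and 1338 lower, and 28 named calls were lost, those of RBP4, GATA2, GFI1, RB1, IRAK3, ORM1, SREBF1, CD79B and MIR17HG under no other alternative, with fewer samples tested. Asking also for a change of at least 1 left 536 and 218. No alternative called a gene for the difference between knockdown and control responses. LTF, not called, changed sign to -0.05 without untreated shRNA1 replicate 2, and THBD, called at 0.56, was 0.36 without the shRNA2 ATRA array. No shRNA2 value could be tested without its arrays. With a filter on dim genes, 1728 were called higher and 2707 lower.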
